A study of Mus musculus with 6 samples.

Results

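The genes described here encode the transforming growth factor beta (TGF-beta) ligands, their receptors and the Smad proteins that carry the signal. Their expression was compared between the heart ventricles of embryos with and without knockdown of Tbx5ua, a long non-coding RNA transcribed divergently from Tbx5. The 10 members are Tgfb1, Tgfb2, Tgfb3, Tgfbr1, Tgfbr2, Tgfbr3, Smad2, Smad3, Smad4 and Smad7. They were taken by gene symbol, and all 10 were found among the 23284 genes of the deposited table. The WT group comprised ventricles of 3 embryos with wild type genotype and the KD group ventricles of 3 embryos with genotype Tbx5ua -/-, all of strain C57BL/6 by the labels (the ES cells were derived from C57BL/6 J) at E9.5. In KD, tandem bGH polyadenylation signals were inserted into the second exon of Tbx5ua on both alleles, to stop its transcription early. Embryos of both groups were made by tetraploid complementation and so came wholly from WT or KD ES cells. KD chimeras were made in the study from more than 1 ES cell line, and the labels do not say which line gave each embryo. The level of Tbx5ua is not analysed here, so it gave no check of the genotype labels in these libraries.

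TGF-beta ligands are secreted in a latent form, bound to their own propeptide and to matrix proteins, and must be released before they can act. The active dimer binds the type II receptor Tgfbr2, which recruits and phosphorylates the type I receptor Tgfbr1, and the coreceptor Tgfbr3 (betaglycan) presents ligand, Tgfb2 above all. Tgfbr1 then phosphorylates Smad2 and Smad3, which join Smad4 and enter the nucleus, while Smad7 blocks the receptor and is itself a target of the pathway. In the embryonic heart this signalling is best known for its part in the endocardial-mesenchymal transition that seeds the valve cushions, and in the epicardium.

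RNA was measured as FPKM, a count of sequenced fragments normalised for transcript length and sequencing depth, with 1 value per gene and group. Each value covers the 3 embryos of its group, and without values of single embryos no SD is given. The table also holds the test results of Cuffdiff, which were not used, so the differences below are untested and have no replicate check. The log2 ratio is that of KD + 0.1 FPKM over WT + 0.1 FPKM. A gene counted as measured at 1 FPKM or more in at least 1 group, which held for 11606 genes, and as past the fold at 1.5-fold or more in either direction. The read depth of the libraries is unknown. In ventricle tissue as a whole, fewer cells of a type and less RNA per cell cannot be told apart. The tissue label fits its defining markers: 8 of 8 cardiomyocyte markers were measured, and Myl2, the ventricular myosin light chain, had 10924 FPKM in WT against 12702 in KD.

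None of the members differed by 1.5-fold or more between the groups. Of the 10 members 9 were measured, and 0 of these 9 lay past 1.5-fold, where 7.58% of all measured genes did. The share of measured genes past 1.5-fold was 4.48% for genes higher in KD and 3.1% for genes lower in KD. At a lower threshold, a log2 ratio of 0.32 in size, Smad4 was the 1 member of 9 to lie past it, beside 21.5% of all measured genes. The log2 ratios of the measured members ran from -0.35 for Smad4 to 0.25 for Tgfbr3. Their median was -0.10, beside a median of 0.00489 over all measured genes. Of the 9 measured members 7 were lower and 2 higher in KD, and of all measured genes 49.1% were lower. The plot of the group values shows the pairs lying close together for every member.

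**Figure D1:**
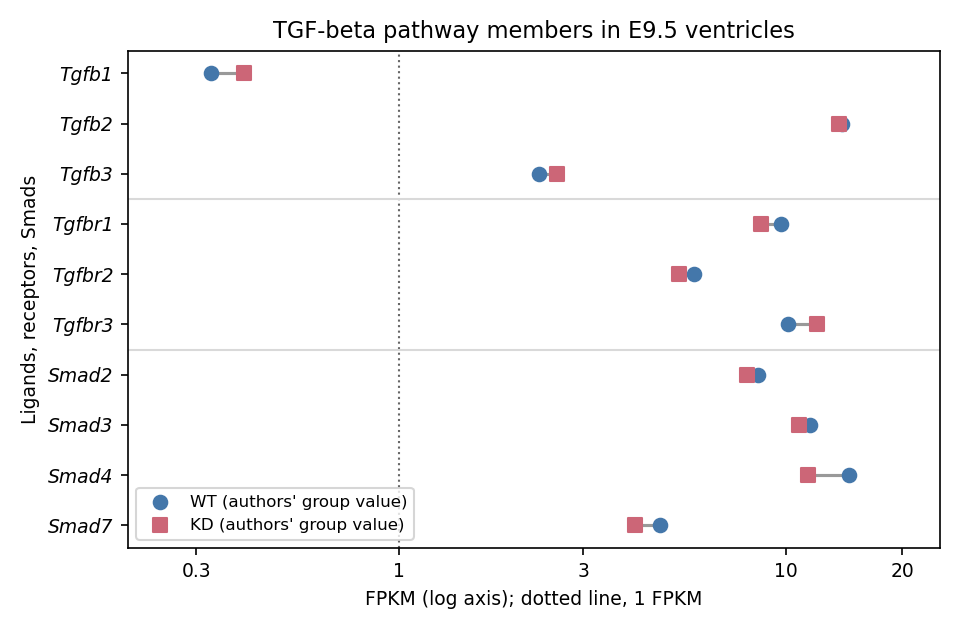
The plot gives the authors' FPKM value of each member in WT (circles) and in KD (squares) on a log axis, with a grey line joining the 2 and no error bars, since single embryos have no values. Tgfb1 lies below the dotted line at 1 FPKM in both groups, and the widest gap in FPKM is that of Smad4, 14.6 in WT and 11.4 in KD.

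Of the ligands, Tgfb2 was by far the most abundant in both groups. Tgfb2 (chromosome 1, 186623186 to 186705992, build mm10 as for all gene positions here) had 14.01 FPKM in WT against 13.75 in KD. Its log2 ratio of -0.03 was the closest to 0 of the members, and 90.3% of measured genes lay as far from 0 or farther. Tgfb3 (chromosome 12, 86056743 to 86079041) had 2.31 FPKM in WT against 2.57 in KD, a log2 ratio of 0.15. Tgfb1 (chromosome 7, 25687002 to 25704996) had 0.328 FPKM in WT against 0.399 in KD. Tgfb1 was thus below 1 FPKM in both groups, and Cuffdiff listed it as having too few reads for its test, so its log2 ratio of 0.22 is that of very low values. The level of Tgfb2 was 6.07 times that of Tgfb3 in WT and 5.34 times in KD, and 42.7 and 34.4 times that of Tgfb1. FPKM is scaled to transcript length, so these levels can be set side by side. Tgfb2 held 84.2% of the summed ligand FPKM in WT and 82.2% in KD, Tgfb3 13.9% and 15.4%, and Tgfb1 1.97% and 2.39%. The summed ligand level was 16.6 FPKM in WT against 16.7 in KD.

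The promoters of the lowest and the highest ligand are shown because these genes stand at the ends of the level order while neither lay past 1.5-fold. Promoter sequences of 300 bases, 250 before to 50 after the transcript start, were taken from RefSeq (GRCm38.p6), where 5 of the 10 members matched by symbol. Capitals mark the Smad-binding letters CAGAC, the GC box GGGCGG and the TATA box TATAAA, each searched on both strands, and none of the marked matches overlap.

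Tgfb1, chr7:25686752-25687051, plus strand: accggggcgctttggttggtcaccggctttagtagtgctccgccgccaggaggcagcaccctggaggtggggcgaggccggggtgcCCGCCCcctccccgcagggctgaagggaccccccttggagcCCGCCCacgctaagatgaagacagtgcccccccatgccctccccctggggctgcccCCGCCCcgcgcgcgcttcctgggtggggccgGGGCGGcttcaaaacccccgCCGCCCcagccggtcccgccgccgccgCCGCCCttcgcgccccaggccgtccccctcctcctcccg
Tgfb2, chr1:186705940-186706239, minus strand: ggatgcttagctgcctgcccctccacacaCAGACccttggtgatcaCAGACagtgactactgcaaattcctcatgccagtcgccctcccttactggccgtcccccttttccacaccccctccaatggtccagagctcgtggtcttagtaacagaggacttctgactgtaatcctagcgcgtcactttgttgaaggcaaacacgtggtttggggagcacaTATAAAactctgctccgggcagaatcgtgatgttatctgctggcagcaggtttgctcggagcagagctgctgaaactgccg

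The Tgfb1 promoter held 6 GC boxes, 30 CpG dinucleotides and 77% G and C, and no CAGAC or TATAAA. The Tgfb2 promoter held 2 CAGAC matches, 1 TATAAA, 10 CpG dinucleotides and 54.3% G and C, and no GC box. Of 32851 RefSeq promoters of this length 49.6% held CAGAC, 35.7% the GC box and 13.6% TATAAA, and the medians were 7 CpG dinucleotides and 52.7% G and C. Smad3 had 2 GC boxes and no CAGAC, Tgfbr2 had 1 CAGAC and no GC box, and of the start sites of Tgfbr1 the upstream one had 2 GC boxes and the downstream one 1 CAGAC. The palindrome GTCTAGAC holds AGAC, the end of the Smad letters, on each strand, but not CAGAC itself. This palindrome and the cyclic AMP response element TGACGTCA were found in none of these member promoters, and in 0.213% and 1.79% of all promoters. These matches describe the letters in the window and nothing else.

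The receptors showed a mixed picture, with the coreceptor higher in KD and both signalling receptors slightly lower. Tgfbr3, the coreceptor (chromosome 5, 107106570 to 107289595) had 10.1 FPKM in WT against 12.0 in KD, 1.19-fold higher in KD. Its log2 ratio of 0.25 was the highest of the measured members, and 31.0% of measured genes lay as far from 0 or farther. Tgfbr1, the type I receptor kinase (chromosome 4, 47353305 to 47414924) had 9.71 FPKM in WT against 8.62 in KD, a log2 ratio of -0.17. Tgfbr2, the type II receptor kinase (chromosome 9, 116087695 to 116175363) had 5.78 FPKM in WT against 5.31 in KD, a log2 ratio of -0.12. Tgfbr2 was the lowest of the receptors in both groups. The level of Tgfbr1 was 1.68 times that of Tgfbr2 in WT and 1.62 times in KD. Tgfbr3 and Tgfbr1 stood nearly level in WT, with a ratio of 1.04, and at a ratio of 1.40 in KD. The summed receptor level was 25.6 FPKM in WT against 26.0 in KD.

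All 4 Smads among the members were lower in KD, as were 49.1% of all measured genes, and Smad4 was the farthest from 0. Smad4, the common partner of the receptor-activated Smads (chromosome 18, 73639013 to 73703741) had 14.6 FPKM in WT against 11.4 in KD, 1.28-fold lower in KD. Its log2 ratio was -0.35, and 18.8% of measured genes lay as far from 0 or farther. Among the 2805 genes with a mean of 10 to 30 FPKM this share was 10.2%. Smad4 was the most abundant of all members in WT and stood below Tgfb2 and Tgfbr3 in KD. Smad7, the inhibitory Smad (chromosome 18, 75367365 to 75395934) had 4.72 FPKM in WT against 4.07 in KD, a log2 ratio of -0.21. The receptor-activated Smads were close to each other in their ratios. Smad2 (chromosome 18, 76241701 to 76311747) had 8.49 FPKM in WT against 7.92 in KD, and Smad3 (chromosome 9, 63646767 to 63757994) had 11.6 FPKM in WT against 10.8 in KD. Both had a log2 ratio of -0.10, and 65.1% of measured genes lay as far from 0 as Smad2 or farther and 65.6% as far as Smad3. The level of Smad3 was 1.36 times that of Smad2 in both groups. The summed Smad level was 39.4 FPKM in WT against 34.2 in KD, and Smad4 held 37.1% of it in WT and 33.4% in KD.

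Across roles the levels of the members ran in WT from Smad4 and Tgfb2 at the top through Smad3, Tgfbr3, Tgfbr1, Smad2, Tgfbr2 and Smad7 to Tgfb3 and Tgfb1. In KD the order of the lower 6, from Tgfbr1 down, was the same, while the upper 4 ran Tgfb2, Tgfbr3, Smad4 and Smad3. Whether neighbours in this order differ beyond the spread between embryos cannot be said, since that spread is not in the group values. Of all measured genes, 18.8% lay as far from 0 as Smad4 or farther, 37.5% as far as Smad7, 45.8% as far as Tgfbr1, 50.2% as far as Tgfb3 and 58.2% as far as Tgfbr2. The measured members lay in the low to middle part of the expression range, from percentile 17.7 (Tgfb3) to percentile 58.6 (Tgfb2) of the mean level of measured genes. The share of genes past 1.5-fold differed by level. It was 17.3% at a mean of 1 to 3 FPKM, where Tgfb3 lay, 5.76% at 3 to 10 FPKM, where Tgfbr1, Tgfbr2, Smad2 and Smad7 lay, and 2.89% at 10 to 30 FPKM, where Tgfb2, Tgfbr3, Smad3 and Smad4 lay.

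**Figure D2:**
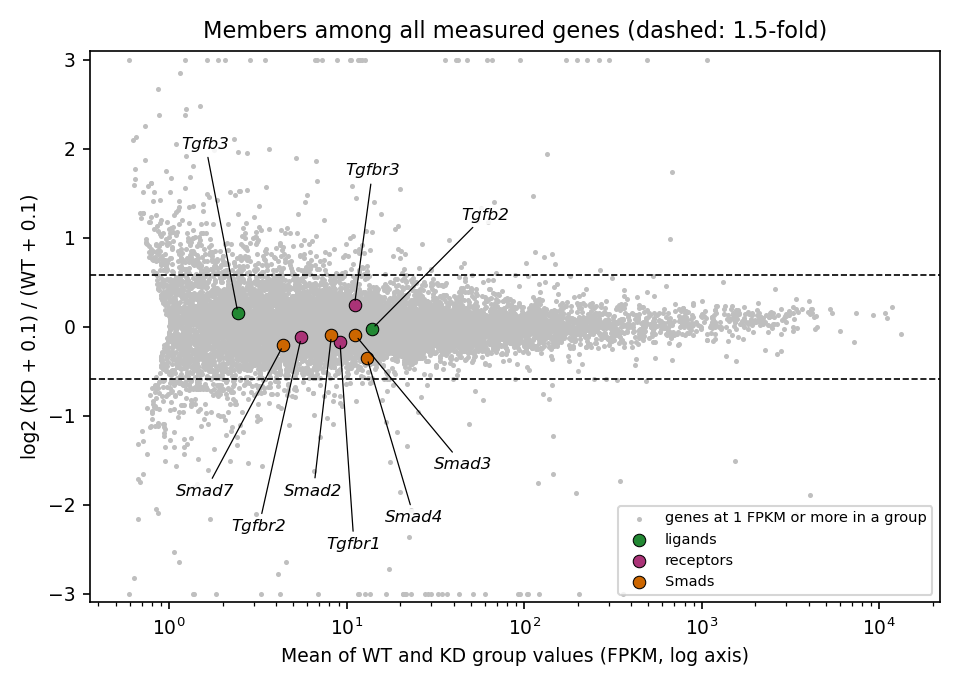
Each grey point is 1 of the 11606 measured genes, placed by the mean of its group values in FPKM (log axis) and its log2 ratio of KD over WT, with 65 genes beyond 3 in size drawn at the edge. The 9 measured members, coloured by role, lie between the dashed lines at 1.5-fold, and the grey cloud widens towards low FPKM.

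Exons of 3 members overlapped exons of other annotated genes in GENCODE M21. The overlap with opposite-strand genes was 2.14% of the exonic bases of Tgfb2 (Gm29491) and 4.82% and 7.6% of those of Tgfb3 (Gm37804 and Gm48008). The overlap with a same-strand gene, Gm43422, was 4.54% of the exonic bases of Tgfbr3. The library protocol does not mark strand, so reads from these stretches cannot be assigned to one gene. No member shared its locus with another row of the deposited table.

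The rest of the pathway was described with 6 lists of 83 genes in all, each gene counted once. Of these, 82 were in the table and 61 were measured. Past 1.5-fold lay 8 of the 61 (13.1%), 5 of them higher and 3 lower in KD, beside 7.58% of all measured genes, and 6 of the 8 had a mean level below 4 FPKM. Lrrc32 and Tnc, 2 of the 8, reached 1 FPKM only in the group where they were higher. With 1 FPKM required in both groups the count was 6 of 58, beside 4.58% of all genes so kept. It was 4 of 61 with a pseudocount of 1, beside 3.66% of all genes, and 2 of 38 at 5 FPKM or more, beside 3.51%. The median log2 ratio of the 61 genes was -0.07.

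Of the genes for latency and activation of the ligands, 13 of 17 in the table were measured, 4 higher and 9 lower in KD, with a median of -0.09. Emilin1, a matrix protein that holds back ligand processing, was the most abundant, with 24.5 FPKM in WT against 30.3 in KD. The 1 gene past 1.5-fold, of 13 (7.69%, beside 7.58% of all measured genes), was Lrrc32, which encodes GARP, the protein that tethers latent TGF-beta to the surface of platelets and regulatory T cells. Lrrc32 had 0.631 FPKM in WT against 1.37 in KD, a log2 ratio of 1.01. Lrrc32 passed the floor through KD alone, and the list held 0 genes past 1.5-fold with a pseudocount of 1 (of 13, beside 3.66% of all genes), at 5 FPKM or more (of 7, beside 3.51%) and at 1 FPKM in both groups (of 12, beside 4.58%). Beside this low value stand the markers of megakaryocytes and platelets. Of these 6 markers 6 were higher in KD, where 49.1% of all measured genes were lower. Past 1.5-fold higher lay 5 of the 6, beside 4.48% of all measured genes. Their summed level was 47.6 FPKM in WT against 107 in KD, led by Pf4 (platelet factor 4) with 38.5 FPKM in WT against 86.9 in KD. Gp9, a platelet glycoprotein gene, reached the floor through KD alone, and with 1 FPKM in both groups 4 of 5 of these markers lay past 1.5-fold, beside 4.58% of all genes so kept. The part of these cells in the level of Lrrc32 was not tested.

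Of the other receptors, 9 of 12 were measured, with a median of -0.10. Of these 9, 0 lay past 1.5-fold, beside 7.58% of all measured genes. Eng (endoglin), a coreceptor of endothelial cells, was the most abundant, with 66.4 FPKM in WT against 63.5 in KD. Eng shares its locus in the table with Fpgs, which makes its value less certain. Of the other Smads, Smad1 and Smad5, which carry BMP signals, and the inhibitory Smad6 were measured, and their log2 ratios ran from 0.01 to 0.09. Smad6 had 12.4 FPKM in WT against 12.7 in KD, so its level was 2.62 times that of Smad7 in WT and 3.12 times in KD.

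Of the Smad regulators, 13 of 14 were measured, 3 higher and 10 lower in KD, with a median of -0.15. Fkbp1a, which binds type I receptors and keeps them inactive, was the most abundant, with 1121 FPKM in WT against 1011 in KD. The 1 gene past 1.5-fold, of 13 (7.69%, close to the 7.58% of all measured genes), was Foxh1, a DNA-binding partner of Smad2 and Smad4. Foxh1 had 20.2 FPKM in WT against 11.3 in KD, a log2 ratio of -0.83. The count of this list was 1 with a pseudocount of 1 (of 13, beside 3.66% of all genes) and at 5 FPKM or more (of 9, beside 3.51%). It was also 1 at 1 FPKM in both groups (of 12, beside 4.58%), and 0 at 2-fold (of 13, beside 2.49%). Of 12 activins, nodal and other family ligands and their antagonist, 10 were below 1 FPKM in both groups. Gdf1 had 2.47 FPKM in WT against 2.36 in KD and shares its locus in the table with Lass1 and Upf1. Inha, the inhibin alpha subunit, had 1.26 FPKM in WT against 1.999 in KD, a log2 ratio of 0.62. Inha was the 1 of 2 measured genes past 1.5-fold, beside 7.58% of all measured genes, and with a pseudocount of 1 the count was 0 of 2. At 5 FPKM or more no gene of this list was left.

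Genes that TGF-beta usually induces lay in both directions. Of 25 such genes 22 were measured, 10 higher and 12 lower in KD, with a median of -0.02. Past 1.5-fold lay 5 of the 22 (22.7%), 3 higher and 2 lower, beside 7.58% of all measured genes. By mean level the share of all genes was 17.3% at 1 to 3 FPKM, where Snai2 and Twist1 lay, 5.76% at 3 to 10 FPKM, where Col1a1 lay, and 3.15% above 100 FPKM, where Tagln lay. The count was 3 of 22 with a pseudocount of 1 (beside 3.66% of all genes), 1 of 16 at 5 FPKM or more (beside 3.51%), 4 of 21 at 1 FPKM in both groups (beside 4.58%) and 15 of 22 at a log2 ratio of 0.32 (beside 21.5%). Higher in KD were Col1a1, a fibrillar collagen chain, with 1.76 FPKM in WT against 4.64 in KD, and the transcription factor genes Snai2, with 1.45 and 2.52 FPKM, and Twist1, with 1.98 and 3.23 FPKM. Twist1 is also a marker of cushion mesenchyme, and the 6 markers of those cells summed to 29.9 FPKM in WT against 35.5 in KD. Of these 6, 3 lay past 1.5-fold higher and 1 lower, beside 4.48% and 3.1% of all measured genes. One of the 3, Pdgfra, reached the floor through KD alone. The 6 epicardial markers were all higher in KD, where 49.1% of all measured genes were lower, and summed to 47.0 FPKM in WT against 95.9 in KD. The part of either cell type in the levels of the target genes was not tested. Lower in KD were the matrix glycoprotein gene Tnc, with 1.14 FPKM in WT against 0.362 in KD, and Tagln, a smooth muscle actin-binding protein gene, with 400.3 FPKM in WT against 263 in KD. Tagln shares its locus in the table with Pcsk7 and Rnf214. The most abundant of the list was Acta2, smooth muscle actin, with 3045 FPKM in WT against 2512 in KD. Many of these genes are also used by other pathways, and Skil and Pmepa1 stand in the list of Smad regulators as well.

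**Figure D3:**
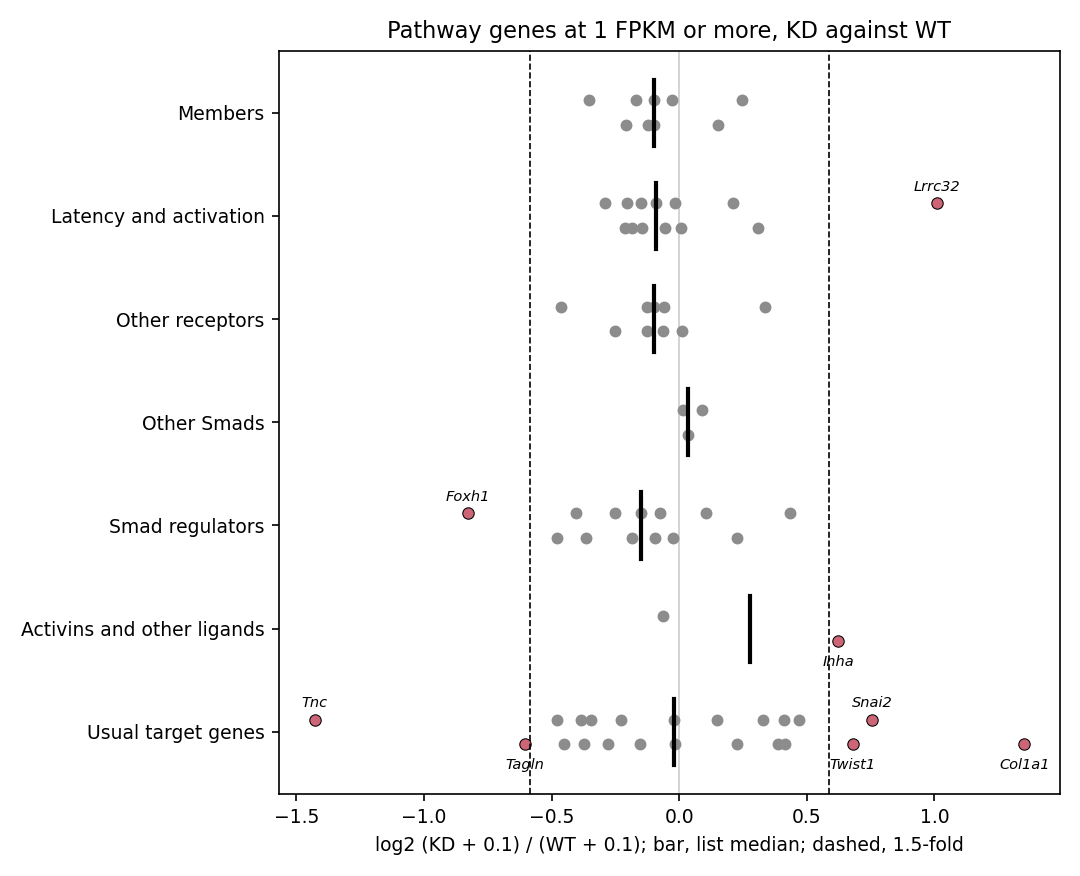
Each point is 1 gene at 1 FPKM or more in at least 1 group, placed by its log2 ratio of KD over WT and offset vertically for legibility only, with a bar at each list's median and dashed lines at 1.5-fold. The members lie between -0.35 and 0.25, and the 8 named genes past 1.5-fold belong to the other lists, 5 of them to the usual target genes.

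Levels of cell type markers give the setting for the members. The 8 endocardial and endothelial markers had a median log2 ratio of 0.07 and the 8 cardiomyocyte markers one of -0.03, with 0 genes past 1.5-fold in either list beside 7.58% of all measured genes, and their summed levels were 156 and 170 FPKM and 16948 and 18629 FPKM in WT and KD. The 6 erythroid markers had a median of 0.04, and 0 lay past 1.5-fold. The 6 epicardial markers, by contrast, had a median of 1.01, with 5 past 1.5-fold, beside the same 7.58%. Aldh1a2, an enzyme gene of retinoic acid synthesis, reached the floor through KD alone, and with 1 FPKM in both groups 4 of 5 epicardial markers lay past 1.5-fold, beside 4.58% of all genes so kept. Tgfbr3, a gene known to be active in the epicardium, was higher in KD by 1.91 FPKM, while the other member receptors, Tgfbr1 and Tgfbr2, were lower. The part of epicardial cells in the difference of Tgfbr3 was not tested. All 6 macrophage and leukocyte markers and all 5 hepatic and yolk sac markers were below 1 FPKM in both groups, and among them Alb and Fgb were listed at 0 in both groups.

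**Figure D4:**
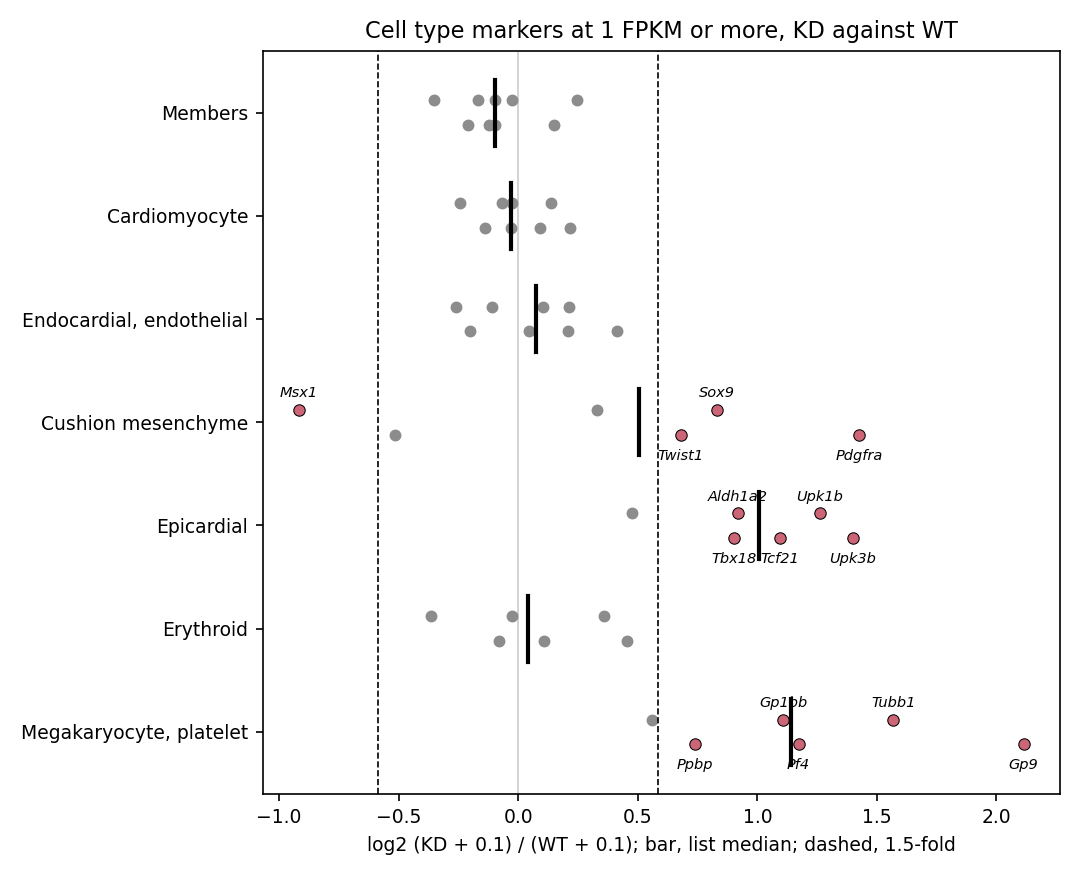
Each point is 1 marker gene at 1 FPKM or more in at least 1 group, placed by its log2 ratio of KD over WT and offset vertically for legibility only, with a bar at each list's median and dashed lines at 1.5-fold. The members, cardiomyocyte, endocardial and erythroid genes lie between the dashed lines. Above 1.5-fold lie 5 of 6 epicardial and 5 of 6 megakaryocyte and platelet markers, beside 4.48% of all measured genes. Among them are Aldh1a2 and Gp9, which were below 1 FPKM in WT.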

How the data were processed

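Ventricles of 3 WT and 3 KD embryos were sequenced as single-end Smart-Seq2 libraries. The submitters' processing notes name TopHat, Bowtie2, Cuffdiff and mm10, with versions not given in the sources used here. The authors deposited 1 Cuffdiff table with 1 FPKM value per gene and group, KD standing under the name KO. Its columns of log2 fold change, test statistic, p, q and significance are the authors' own comparison and were not used. Without values of single embryos no test was made, and differences are descriptions. Groups followed the sample titles.

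The members and lists were chosen with earlier results of these data known. Log2 ratios were computed with a pseudocount of 0.1 FPKM over genes at 1 FPKM or more in either group. From the pathway lists, each gene past 1.5-fold and the most abundant gene per list were named. Smad1, Smad5, Pf4, Pdgfra, Sox9, Msx1, Msx2, Gp9, Aldh1a2, Myl2, Alb and Fgb were named in addition after their values were seen. The GC box, the TATA box and the cyclic AMP element were added to the Smad motifs after the values were known. Nrros was not matched in the table. Start positions had 1 added. The floor of 1 FPKM in both groups was applied to the marker lists after seeing the data. Other pseudocounts, filters, scalings and folds were tried. The ratio script was tested on simulated data. Python 3.11.15, NumPy 2.4.6, pandas 2.3.3 and Matplotlib 3.10.9 were used.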

Additional observations from a re-analysis of the deposited data

How the results depend on the processing

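No paired analysis was possible because each group has 1 value per gene, and leaving out single embryos was not run for that reason. The count of members past 1.5-fold stayed at 0 under each pseudocount, filter and scaling and at 2-fold, and was 1 (Smad4) at a log2 ratio of 0.32 in size. By construction a count of 0 could not rise at 2-fold, with a pseudocount of 1 or under the stricter filters. The members' median log2 ratio of -0.098 became -0.0897 with a pseudocount of 1 and -0.1282 with both groups scaled to the same sum. The log2 ratios of single members changed sign in 0 of 40 values under the other pseudocounts and scalings. A pseudocount cannot change the sign of a ratio, and the scalings moved all ratios only slightly, so this count is no check of the directions. The largest shift was that of Tgfb1, from 0.22 to 0.0757 with a pseudocount of 1. The 8 pathway genes past 1.5-fold (of 61) became 4 of 61 with a pseudocount of 1, 2 of 38 at 5 FPKM or more, 14 of 82 with no filter, 23 of 61 at a log2 ratio of 0.32 and 3 of 61 at 2-fold, by the construction of these settings, and were 6 to 8 under the others. Scaling to the same sum moved the median of all measured genes to -0.0252. Over the genes kept by each setting, the share of all genes past the fold was 3.66% with a pseudocount of 1, 3.51% at 5 FPKM or more, 4.58% at 1 FPKM in both groups, 16.2% with no filter, 21.5% at a log2 ratio of 0.32 and 2.49% at 2-fold. The unknown depth limits Tgfb1, Tgfb3 and the other genes of low FPKM the most.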

Other observations

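Markers of the cushion mesenchyme, the cells that arise by endocardial-mesenchymal transition, were split in direction. Pdgfra, a growth factor receptor of mesenchymal cells, had 0.969 FPKM in WT against 2.78 in KD, a log2 ratio of 1.43. Sox9, a transcription factor of cushion mesenchyme and the epicardium, had 8.95 FPKM in WT against 16.0 in KD, a log2 ratio of 0.83. The homeobox gene Msx1 had 5.60 FPKM in WT against 2.92 in KD, a log2 ratio of -0.92, and Msx2 had a log2 ratio of -0.51. Msx1 shares its locus in the table with its antisense gene, so its value is less certain. Of the 6 markers, 3 lay past 1.5-fold higher and 1 past 1.5-fold lower in KD, beside 4.48% and 3.1% of all measured genes. Of genes with a mean of 1 to 3 FPKM, 17.3% lay past 1.5-fold in either direction, and of those with a mean of 3 to 10 FPKM 5.76%. At a mean of 10 to 30 FPKM, where Sox9 lay, the share was 2.89%. Pdgfra reached the floor of 1 FPKM through KD alone, and with 1 FPKM in both groups 3 of 5 lay past 1.5-fold in either direction, beside 4.58% of all genes so kept. Twist1 and Postn are also in the list of usual TGF-beta target genes. These values are of low to middle FPKM, with no values of single embryos, and their differences were not tested.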
